A study of Mus musculus with 10 samples.

Results

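The genes described here encode the phagocyte NADPH oxidase, the membrane enzyme with which macrophages and neutrophils make superoxide. They were taken by name, not by any measured value: Cybb, Cyba, Ncf1, Ncf4, Rac1, Rac2 and Hvcn1, which are 7 of the 23382 NCBI gene identifiers among 39488 entries of the count table. Other subunits are left aside. Peritoneal macrophages of C57BL/6 mice aged 8 weeks were studied by RNA sequencing, in 5 control and 5 ox-LDL libraries. The cells had been drawn into the peritoneum with thioglycollate, an irritant broth, and were cultured before treatment. The control cells were labelled untreated. The ox-LDL cells were given LPS, a component of bacterial walls that macrophages sense as a danger signal, at 100 ng/ml. They also received oxidized low-density lipoprotein (ox-LDL), the modified lipoprotein of atherosclerotic plaques, at 100 µg/ml for 16 h. By these labels both agents were given to the same cells, so that their effects cannot be told apart. Other descriptions of the experiment can be read as LPS priming of the controls too, which would leave ox-LDL as the difference. The labels were followed, and nothing in them says whether the 5 libraries of a group came from separate mice, so that p-values measure the spread between these libraries.

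The oxidase takes electrons from NADPH in the cytosol and passes them across the membrane to oxygen, which becomes superoxide. Its core is a flavocytochrome made of gp91phox, the catalytic subunit encoded by Cybb, and p22phox, its partner encoded by Cyba, and each of these proteins needs the other to be stable. In a resting cell the enzyme is silent. On activation, cytosolic subunits that include p47phox (Ncf1) and p40phox (Ncf4) move to the membrane together with a Rac GTPase, and the electron flow starts. The proton channel Hv1, encoded by Hvcn1, lets protons follow the electrons and so keeps the membrane voltage and the cytosolic pH within limits. Inherited loss of subunits of this enzyme causes chronic granulomatous disease, in which phagocytes kill microbes poorly.

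The stretch just before the transcription start is shown for both genes of the flavocytochrome, because their RNA levels moved apart in these data. In ox-LDL replicate 2 their ratio lay within the control range, as given further on. The pair was thus chosen with the outcome known. The sequences are those of RefSeq (table of build GRCm38.p6), each found once and without mismatch in the mouse build mm9, which the authors aligned to. Each holds the 250 bases before the start, on the minus strand, at chrX:9046451-9046700 for Cybb and at chr8:124956841-124957090 for Cyba. The Cybb start is that of RefSeq. The GENCODE span of Cybb given further on also covers a transcript with a first exon farther upstream, so that the window lies inside that span, in an intron of that transcript. Capitals mark the core of the element bound by interferon regulatory factors, a pair of GAAA blocks separated by any 2 bases, searched on both strands.
Cybb: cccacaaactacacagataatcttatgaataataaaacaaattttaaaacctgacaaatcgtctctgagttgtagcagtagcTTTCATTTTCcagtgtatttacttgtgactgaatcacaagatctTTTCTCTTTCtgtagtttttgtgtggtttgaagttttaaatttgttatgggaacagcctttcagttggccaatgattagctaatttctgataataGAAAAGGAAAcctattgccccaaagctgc
Cyba: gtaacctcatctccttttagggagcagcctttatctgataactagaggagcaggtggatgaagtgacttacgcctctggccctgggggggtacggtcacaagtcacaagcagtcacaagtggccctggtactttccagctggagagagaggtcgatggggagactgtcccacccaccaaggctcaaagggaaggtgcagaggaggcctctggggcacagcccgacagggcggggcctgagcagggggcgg
The Cybb window held 3 matches, whose ends nearest to the start lay 159, 115 and 20 bases before it, and the Cyba window held 0. Among 32851 RefSeq windows of this length, 2.98% held the motif at least once and 4 windows (0.0122%) held it 3 times or more. The Ncf1 window, the other one matched, had 1 match, which ended 73 bases before the start. None of the 3 windows held GAGGAA, a core bound by PU.1, which 23.3% of all windows held. A match describes the letters alone, and no binding was measured. A link between the matches and the RNA levels was not tested.

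Total counts ranged from 20094647 to 20687289 in the control libraries and from 19257131 to 20358017 in the ox-LDL libraries, so that depth was nearly even. Counts were scaled to a common library size (CPM) with edgeR's TMM factors, which correct for libraries that differ in composition. The factors lay between 0.593 (ox-LDL replicate 2) and 1.19. Fold changes are given on the log2 scale, ox-LDL over control, from edgeR's quasi-likelihood test on 12654 genes, and a gene was called at an adjusted p below 0.01. The median fold change over all genes tested was 0.10. Of the 1866 genes called, 63.7% were higher in the ox-LDL libraries. That share was 54.2% with upper-quartile normalization, 54.7% with library size alone, 53.9% without ox-LDL replicate 2 and between 42.5% and 46.0% with limma on log2-transformed FPKM. Ox-LDL replicate 2 deviated from its group by gene length more than any other library did. Genes shorter than 1000 bases lay in that library at a median of 1.54 from the ox-LDL group mean on the log2 scale, and genes of 2000 to 4000 bases at a median of -0.36. Control replicates 1 and 4 had a smaller trend of the same kind, with medians of 0.41 and 0.30 for the shorter genes. The 7 genes are therefore given with and without it where their value or call moves.

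All 7 genes passed the filter on low counts. Of the 7, 1 was called higher and 0 lower in the ox-LDL libraries by edgeR, whereas 14.7% of all genes tested were called, 9.4% of all higher and 5.35% lower. At an unadjusted p below 0.05, 3 of the 7 passed in edgeR, all of them higher, against 23% of all genes that were higher at that threshold. DESeq2 called 3 higher and 0 lower, against 13.9% and 9.83% of all genes. The same 3 were called higher by edgeR without ox-LDL replicate 2, against 13.5% of all genes, and with the length trend of each library taken out, against 13% of all genes. The single gene called by edgeR, Cybb, also passed an absolute log2 fold change of 2, which 6.71% of all genes did. Cybb was the only member whose groups did not overlap, with every ox-LDL library above every control library, a pattern shown by 11.6% of all genes. No member had every ox-LDL library below every control library, which 9.11% of genes did. The share of members called, 1 of 7, was thus close to that over all genes. The median fold change of the 7 was 0.51, with 5 values above 0 and 2 below.

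**Figure D1:**
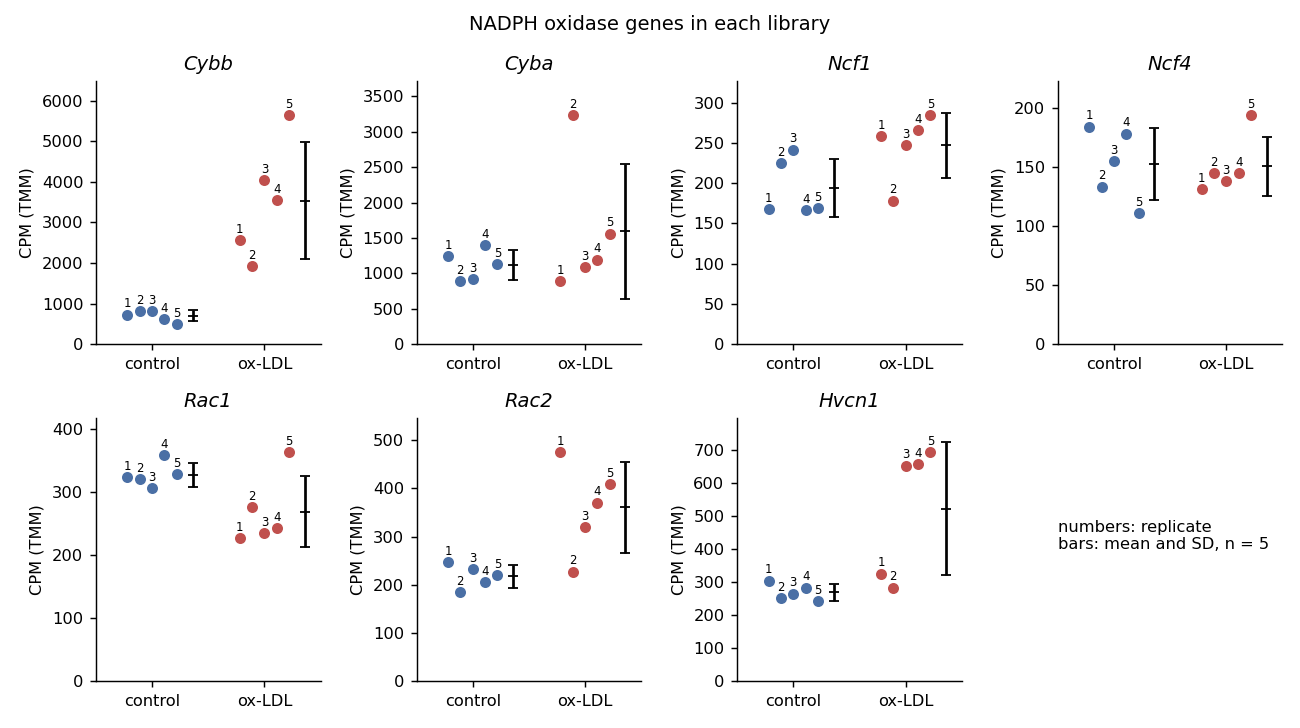
Level of each oxidase gene in each library, as TMM-normalized CPM on axes that start at 0, with the replicate number at each point and the group mean with SD (n = 5) as bars. Cybb lay between 503 and 821 in the control libraries and between 1916 and 5637 in the ox-LDL libraries, whereas the groups of the other 6 genes overlapped.

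Cybb (NCBI gene 13058, minus strand of chromosome X, 9012378 to 9064897 in mm9) encodes the subunit that carries the electrons. Its level was 731, 821, 817, 625 and 503 CPM in control replicates 1 to 5. In ox-LDL replicates 1 to 5 it was 2558, 1916, 4041, 3540 and 5637 CPM. The lowest ox-LDL library, replicate 2, was thus above the highest control library, and replicate 5 was the highest of all. The mean rose from 699 ± 136 to 3538 ± 1436 CPM (SD, n = 5), with a log2 fold change of 2.34 ± 0.33 (SE, 95% interval 1.62 to 3.06, edgeR adjusted p = 3.71e-04), or 5.06-fold. By fold change it stood at place 492 among the 1189 genes called higher, so that the rise was large for the oxidase and ordinary among the genes that rose. In bulk RNA, more cells that express a gene and more RNA of it per cell cannot be told apart. Without ox-LDL replicate 2 the fold change was 2.46 (edgeR adjusted p = 3.67e-05).

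Cyba (NCBI gene 13057, minus strand of chromosome 8, 124948672 to 124956840) encodes the partner subunit. It measured 1242, 893, 919, 1397 and 1126 CPM in the control replicates. After treatment it measured 888, 3231, 1089, 1194 and 1563 CPM. The value of 3231 in replicate 2 stood far above the rest, and the other 4 ox-LDL libraries lay across the control range. The group means were 1115 ± 214 and 1593 ± 948 CPM (SD, n = 5), and the log2 fold change of 0.51 ± 0.36 (SE) was not called (95% interval -0.26 to 1.29, edgeR adjusted p = 0.313). Without ox-LDL replicate 2 it was 0.04 ± 0.22 (edgeR adjusted p = 0.891). Cyba had the shortest effective length of the 7 genes, 622 bases, and its deviation in ox-LDL replicate 2 was 1.18 above the group mean on the log2 scale. With the trend on gene length taken out of every library the fold change was 0.57 ± 0.18 (edgeR adjusted p = 0.0265), again not called.

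The level of Cybb relative to Cyba was compared within each library as a ratio of FPKM, the read count scaled by library size and by gene length, which does not depend on the scaling between libraries. The ratio was 0.0958, 0.145, 0.143, 0.0780 and 0.0751 in control replicates 1 to 5. It was 0.457, 0.0973, 0.613, 0.563 and 0.533 in ox-LDL replicates 1 to 5. Thus 4 ox-LDL libraries were far above every control library, whereas replicate 2 lay within the control range. The log2 ratio differed by 1.89 between the group means (two-sided exact permutation test, p = 0.0238, adjusted over 4 ratios 0.0317). Leaving out ox-LDL replicate 2 gave 2.39, and leaving out control replicate 1, 4 or 5 or ox-LDL replicate 1, 3, 4 or 5 gave an adjusted p of 0.0635 in the same exact test, above the threshold of 0.05 used for ratios.

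**Figure D2:**
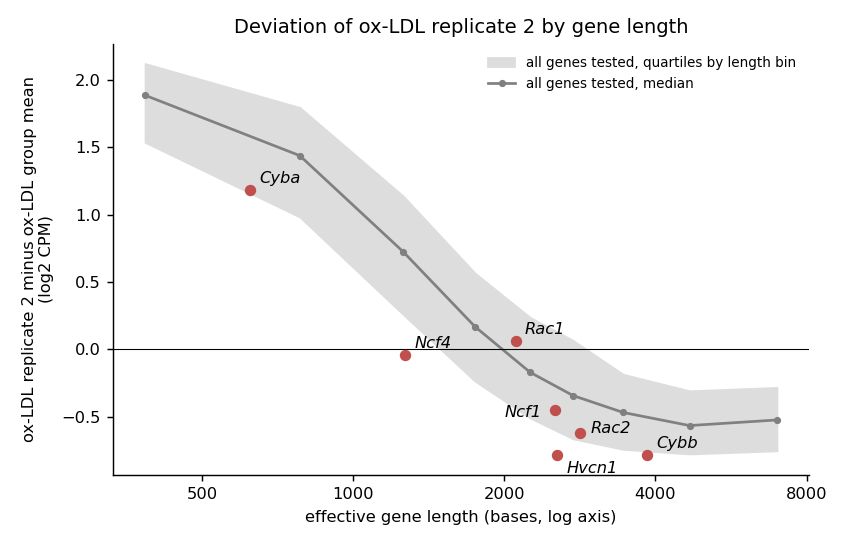
Deviation of ox-LDL replicate 2 from the ox-LDL group mean, in log2 CPM, against effective gene length in bases on a log axis. The grey line and band are the median and quartiles of all genes tested, and the points are the 7 oxidase genes: Cyba, the shortest, lay 1.18 above the group mean, while Cybb lay at -0.79, Hvcn1 at -0.78 and Rac2 at -0.62.

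Ncf1 (NCBI gene 17969, minus strand of chromosome 5, 134695923 to 134705495) encodes the organizer subunit, which is phosphorylated on activation and brings the cytosolic subunits to the membrane. It measured 167, 225, 242, 166 and 169 CPM in the control replicates. In the ox-LDL replicates it measured 259, 178, 247, 266 and 284 CPM. The ox-LDL libraries other than replicate 2 lay just above the highest control library, at 247 CPM or more against 242. The means were 194 ± 36.5 and 247 ± 40.7 CPM (SD, n = 5), and the log2 fold change of 0.35 ± 0.20 (SE) was not called (95% interval -0.10 to 0.79, edgeR adjusted p = 0.233). Without ox-LDL replicate 2 it was 0.41 ± 0.17 (edgeR adjusted p = 0.0662). Of its 3616 annotated exon bases, 361 are shared with Gtf2ird2 on the opposite strand, and whether counting used the strand is not given in the sources used here.

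Ncf4 (NCBI gene 17972, plus strand of chromosome 15, 78075231 to 78093010) encodes a subunit that binds a phosphoinositide of phagosome membranes. It measured 184, 133, 155, 178 and 111 CPM in the control replicates. The ox-LDL replicates measured 131, 144, 138, 145 and 194 CPM. Apart from replicate 5, the ox-LDL libraries lay close together, between 131 and 145 CPM, and inside the control range. The means of 152 ± 30.6 and 150.4 ± 24.8 CPM (SD, n = 5) gave a log2 fold change of -0.02 ± 0.20 (SE, 95% interval -0.45 to 0.42, edgeR adjusted p = 0.961). The ratio of Ncf4 to Ncf1 had a median of 1.31 in the control libraries (range 1.18 to 2.17) and 1.11 in the ox-LDL libraries (range 1.00 to 1.62). The difference of -0.35 on the log2 scale was within the spread of the libraries (two-sided exact permutation test, p = 0.175, adjusted over 4 ratios 0.175).

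Rac1 (NCBI gene 19353, minus strand of chromosome 5, 144266346 to 144288904) encodes the Rac GTPase found in nearly all cell types. It measured 323, 321, 306, 358 and 328 CPM in the control replicates. In the ox-LDL replicates it measured 226, 276, 235, 243 and 363 CPM. Replicates 1 to 4 of the ox-LDL group were below all control libraries, and replicate 5 was above them all. The means were 327 ± 19.2 and 269 ± 56.2 CPM (SD, n = 5), and the log2 fold change of -0.28 ± 0.19 (SE) was not called (95% interval -0.71 to 0.14, edgeR adjusted p = 0.307).

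Rac2 (NCBI gene 19354, minus strand of chromosome 15, 78389599 to 78403213) encodes the Rac GTPase of blood cells. It measured 247, 185, 232, 205 and 219 CPM in the control replicates. After treatment the replicates measured 476, 227, 320, 370 and 409 CPM. Here 4 ox-LDL libraries were above every control library, and replicate 2 was inside the control range. The means were 218 ± 24.1 and 360.5 ± 93.7 CPM (SD, n = 5). The log2 fold change of 0.73 ± 0.22 (SE, 95% interval 0.24 to 1.22) had an edgeR adjusted p of 0.0319 and was not called. It was 0.81 ± 0.17 without ox-LDL replicate 2 (edgeR adjusted p = 0.00276) and 0.70 ± 0.16 with the length trend taken out (edgeR adjusted p = 0.00538), both past the threshold. The annotated transcripts of Rac1 and Rac2 share at most 29 identical bases in a row, and 49 of the 2987 stretches of 50 bases of Rac2 also occur in other genes.

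Within each library Rac2 was also set against Rac1. The FPKM ratio of Rac2 to Rac1 was 0.568, 0.427, 0.561, 0.428 and 0.495 in the control replicates. After treatment it was 1.57, 0.644, 1.02, 1.14 and 0.848. Every ox-LDL library, replicate 2 included, was above every control library, and in 3 of the 5 the Rac2 value exceeded the Rac1 value, which was so in 0 of the 5 controls. The log2 ratio differed by 1.02 (two-sided exact permutation test, p = 0.00794, adjusted over 4 ratios 0.0159), where 0.00794 is the smallest p that 5 libraries against 5 allow.

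Hvcn1 (NCBI gene 74096, plus strand of chromosome 5, 122656813 to 122692306) encodes the proton channel. It measured 305, 251, 265, 283 and 242 CPM in the control replicates. In the ox-LDL replicates it measured 326, 283, 653, 659 and 695 CPM. The ox-LDL libraries fell into a lower pair, replicates 1 and 2, at or just above the controls, and 3 libraries at 653 CPM or more, against 305 CPM in the highest control library. The means were 269 ± 25.3 and 523 ± 201 CPM (SD, n = 5), or 1.94-fold. The log2 fold change of 0.96 ± 0.28 (SE, 95% interval 0.34 to 1.58) had an edgeR adjusted p of 0.0266 and was not called. It was 1.07 ± 0.22 without ox-LDL replicate 2 (edgeR adjusted p = 0.00275) and 0.95 ± 0.24 with the length trend taken out (edgeR adjusted p = 0.00904). Of its 3563 annotated exon bases, 549 are shared with Tctn1 on the opposite strand, whose mean level was 2.13 CPM without and 2.76 CPM with treatment.

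Hvcn1 RNA was lower relative to Cybb RNA after treatment, with log2 fold changes of 0.96 for Hvcn1 (not called) and 2.34 for Cybb. The FPKM ratio of Hvcn1 to Cybb was 0.627, 0.470, 0.490, 0.637 and 0.695 in the control replicates. With treatment it was 0.196, 0.222, 0.240, 0.244 and 0.203. All ox-LDL libraries were below all control libraries, and ox-LDL replicate 2 was at the centre of its group. The log2 ratio fell by 1.39 (two-sided exact permutation test, p = 0.00794, adjusted over 4 ratios 0.0159), and it fell by 1.32 to 1.46 when any single library was left out.

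**Figure D3:**
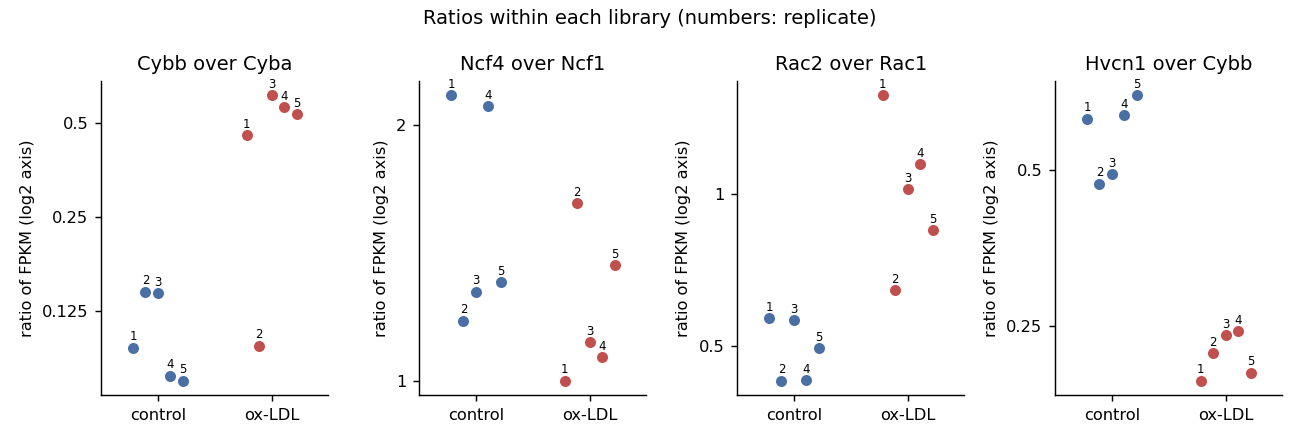
Ratios of FPKM between oxidase genes within each library, on log2 axes, with the replicate number at each point. Rac2 over Rac1 rose from a median of 0.495 to 1.02 and Hvcn1 over Cybb fell from 0.627 to 0.222 without overlap, whereas ox-LDL replicate 2 lay among the controls for Cybb over Cyba, at 0.0973.

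**Figure D4:**
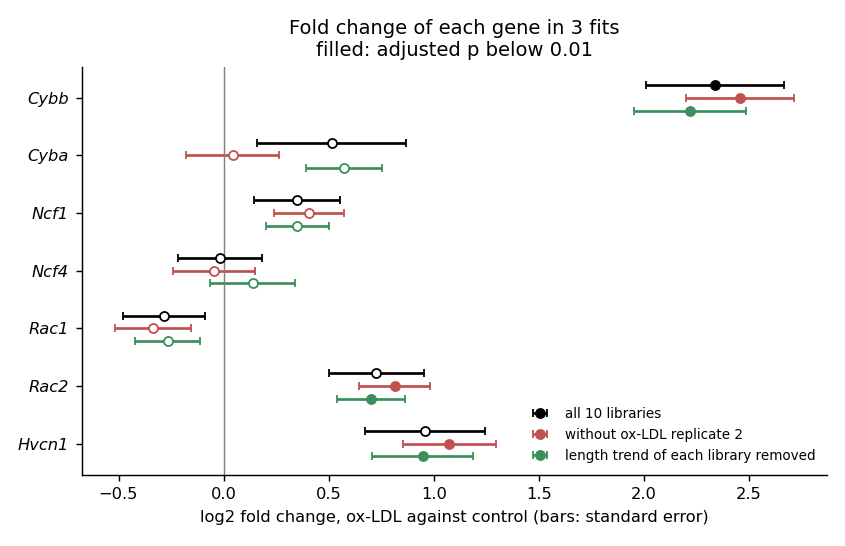
Log2 fold change of each gene, ox-LDL against control, with its standard error, for all 10 libraries, without ox-LDL replicate 2 and with each library's length trend removed, filled where the adjusted p was below 0.01. Cybb was called each time, at 2.34, 2.46 and 2.22, while Rac2 and Hvcn1 were called in the latter pair alone and Cyba ranged from 0.04 to 0.57.

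Per length, Cyba was the most abundant of these transcripts in both groups. In the control libraries its FPKM was 1864 ± 226 (SD, n = 5), followed by Cybb at 195 ± 42.4 and Rac1 at 164 ± 15.3. Ncf4 at 125 ± 16.7, Hvcn1 at 110 ± 5.77, Ncf1 at 82.2 ± 22.6 and Rac2 at 80.6 ± 9.91 FPKM came next. Only the gap between Cyba and Cybb was free of overlap. The ranges of all other neighbours in this order overlapped, although Rac1 exceeded Ncf4 and Hvcn1 exceeded Ncf1 in 5 of 5 libraries. In the ox-LDL libraries Cyba stood at 2129 ± 508 and Cybb at 891 ± 371 FPKM, followed by Hvcn1 at 199 ± 91.4 FPKM, and the ranges of these 3 genes did not overlap. Rac2 at 126 ± 53.3, Rac1 at 117 ± 24.8, Ncf4 at 110.0 ± 25.1 and Ncf1 at 94.2 ± 31.8 FPKM had overlapping ranges, although Rac1 exceeded Ncf4 and Ncf4 exceeded Ncf1 in 5 of 5 libraries. By mean FPKM, Hvcn1 and Rac2 thus moved from the fifth and the last place of the order to the third and the fourth. The places of Rac2 did not hold in each library. Ncf1 exceeded Rac2 in 2 of 5 control libraries, and Rac2 exceeded Rac1 in 3 of 5 ox-LDL libraries. Each of the 7 genes was above at least 91.4% of the genes tested in both groups, so that the whole set was expressed in these macrophages with and without treatment. The effective length of Cybb, which enters its FPKM, varied between libraries from 3305 to 4190 bases.

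Likeness between genes was measured as the root mean square difference of log2 CPM, each gene centred on its own mean over the 10 libraries, among 7503 genes with a mean of at least 10 CPM. The genes closest to Cybb were Slc22a4 (0.24), Herc6 (0.27) and Uba7 (0.28), against a median of 1.24 over the 7503. Those closest to Cyba were Edf1 (0.053), Nsmce1 (0.11) and Get3 (0.12), and Ghdc, Ccnt2 and Trap1 were closest to Ncf1, at 0.093 to 0.11. Ube2g2 (0.16) and Rab5a (0.16) were among the nearest to Ncf4, and Aamp, Ddx41 and Pqbp1 were nearest to Rac1, at 0.069 to 0.088. Klhl22 (0.16) and Susd6 (0.19) were among the nearest to Rac2, and Metap1, Kpna3 and C9orf72 came nearest to Hvcn1, at 0.20 to 0.21. Within the oxidase, Ncf4 and Rac1 were most alike (0.24), then Ncf1 and Rac2 (0.31), and Cybb and Rac1 were least alike (1.35). Cybb was farther from its protein partner Cyba (1.22) than from Hvcn1 (0.74). All points share the same 10 libraries, including the length trend of ox-LDL replicate 2.

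Genes that act around the oxidase were taken from 7 lists by function, 90 genes in all, of which 75 were tested. Of these, 16 were called higher, 6 lower and 53 neither, with a median log2 fold change of -0.11, whereas 9.4% of all genes tested were called higher and 5.35% lower. Each of the 22 calls was also made by edgeR without ox-LDL replicate 2. With library size alone 6 of them were lost. Limma on log2-transformed FPKM lost 6 with either pseudocount and 10 with no filter on low values. Cybc1, Abr, Prex1, Prkce, Akt1 and Txnrd1 were not called in any of these settings.

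Among 6 genes for maturation and stability of the oxidase, 1 rose, 1 fell and 4 were not called, with a median of 0.04. Cybc1 encodes Eros, a chaperone of the endoplasmic reticulum without which the flavocytochrome is degraded. It measured 48.7, 45.1, 45.1, 38.6 and 55.2 CPM in the control replicates and 98.7, 77.5, 109, 103 and 180 CPM in the ox-LDL replicates, with no overlap. Its log2 fold change was 1.29 ± 0.23 (SE, edgeR adjusted p = 0.00164). The call was lost with library size alone (edgeR adjusted p = 0.0164) and with limma on log2-transformed FPKM (adjusted p 0.0226 to 0.0667). Coro1a, an actin-binding protein that associates with cytosolic oxidase subunits, fell from 145 ± 45.3 to 54.7 CPM (log2 fold change -1.40, edgeR adjusted p = 0.00274), and the highest ox-LDL library, at 72.5, was below the lowest control library, at 105. Of 10 other genes of the oxidase family, such as Nox and Duox enzymes, 5 had an entry and only Rac3 was expressed enough to be tested. It was near the limit of detection, with a mean of 1.01 ± 0.171 CPM before and 0.357 CPM after treatment (log2 fold change -1.57, edgeR adjusted p = 0.0249), and was not called.

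The list of transcription factors with a known role at oxidase genes had 12 tested members, of which 4 rose, 1 fell and 7 were not called, with a median of 0.42. Irf8 and Irf1, interferon regulatory factors, were among those that rose. Irf8 was between 91.9 and 141 CPM in the control libraries. In ox-LDL replicates 1 to 5 it was 353, 1145, 687, 987 and 1749 CPM, a log2 fold change of 3.24 ± 0.39 (SE, edgeR adjusted p = 1.46e-04). Irf1 rose from at most 31.7 CPM in any control library to at least 263 CPM in any ox-LDL library, by 4.70 ± 0.41 on the log2 scale (edgeR adjusted p = 2.14e-05). Cebpb, a bZIP factor of inflammatory genes, rose by 2.19 ± 0.30 (edgeR adjusted p = 2.76e-04), also without overlap. Fli1, an ETS family factor, fell from 32.9 to 15.4 CPM (log2 fold change -1.10 ± 0.19, edgeR adjusted p = 0.00122). Spi1, which encodes PU.1, the ETS factor that sets macrophage identity, averaged 298 ± 43.9 CPM without and 239 CPM with treatment and was not called (log2 fold change -0.31 ± 0.23, edgeR adjusted p = 0.344). The ox-LDL library with the highest Irf8, Irf1 and Cebpb, replicate 5, was also the one with the highest Cybb. Replicate 2, which had the largest length trend, had the lowest Cybb of the ox-LDL group and the second highest Irf8, Irf1 and Cebpb. The other 4 ox-LDL libraries had the same order for Irf8, Irf1 and Cebpb, and for Cybb they differed from it in replicates 3 and 4 alone. Other called genes, such as Cybc1 and Clcn7, were also highest in replicate 5, whereas Abr and Prdx1 were not. A link between these factors and Cybb was not tested.

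Regulators of Rac and related small GTPases numbered 17, all tested, of which 2 rose, 2 fell and 13 were not called, with a median of -0.41. Dock2, a Rac exchange factor of blood cells, was between 125 and 195 CPM in the control libraries and between 22.0 and 69.8 CPM in the ox-LDL libraries. Its log2 fold change was -1.99 ± 0.29 (SE, edgeR adjusted p = 4.49e-04). Prex1, a Rac exchange factor activated by phosphoinositides, was between 18.8 and 49.95 CPM in the control and between 40.0 and 124 CPM in the ox-LDL libraries, where replicate 2 overlapped the controls (log2 fold change 1.41 ± 0.34, edgeR adjusted p = 0.00897). Its call was lost when control replicate 1, 2, 3 or 4 or ox-LDL replicate 1, 3, 4 or 5 was left out (edgeR adjusted p of at most 0.0287). Exchange factors load Rac with GTP, and the genes called thus included one that fell and one that rose. Among proteins that turn Rac off, Arhgap25, a Rac-directed GTPase-activating protein of phagocytes, fell from 330.5 ± 22.0 to 146 CPM (log2 fold change -1.18, edgeR adjusted p = 0.00195). Abr, whose product also acts on Rac as a GTPase-activating protein, rose from 57.1 ± 18.1 to 160.0 CPM (log2 fold change 1.49, edgeR adjusted p = 0.00334), and it lost its call without control replicate 1, 2 or 4 (edgeR adjusted p of at most 0.0119).

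Of 20 kinases and lipid signalling genes of oxidase activation, 2 rose, 2 fell and 16 were not called, with a median of -0.14. Pla2g4a, the cytosolic phospholipase that frees arachidonic acid, was at 14.1 to 20.4 CPM in the control and at 53.6 to 156 CPM in the ox-LDL libraries (log2 fold change 2.27 ± 0.29, edgeR adjusted p = 1.90e-04). Prkce, a protein kinase C isoform, rose at a low level, from 1.86 ± 0.389 to 4.96 CPM (log2 fold change 1.41, edgeR adjusted p = 0.00124). Pak1, a kinase bound by active Rac, fell from 49.2 ± 16.8 to 14.3 CPM (log2 fold change -1.78, edgeR adjusted p = 0.00116), although control replicate 5, at 23.9, was close to ox-LDL replicate 1, at 23.0. Akt1 fell from 225 ± 16.3 to 135 CPM (log2 fold change -0.74, edgeR adjusted p = 0.00671), and it lost its call without any single control library or without ox-LDL replicate 3 or 4 (edgeR adjusted p of at most 0.0218).

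Of 8 genes for charge and pH balance, 7 were tested and 1 was called, with a median of -0.11. This was Clcn7, a chloride and proton exchanger of lysosomes, at 87.3 to 125 CPM in the control and 224 to 510 CPM in the ox-LDL libraries (log2 fold change 1.86 ± 0.25, edgeR adjusted p = 2.89e-04).

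Superoxide and peroxide handling had 12 tested genes, of which 6 rose and 6 were not called, with a median of 1.22, the highest of the lists. Sod2, the mitochondrial superoxide dismutase, was at 96.5 to 141 CPM in the control libraries and at 901, 3082, 1246, 1105 and 3058 CPM in ox-LDL replicates 1 to 5. Its log2 fold change was 4.06 ± 0.42 (SE, edgeR adjusted p = 4.98e-05), whereas Sod1, the cytosolic dismutase, averaged 197 ± 56.8 CPM without and 190 CPM with treatment and was not called (log2 fold change -0.05, edgeR adjusted p = 0.915). The peroxiredoxins Prdx5, Prdx1 and Prdx6, which reduce peroxides, rose by 3.09 ± 0.49, 2.11 ± 0.38 and 1.90 ± 0.21 on the log2 scale (edgeR adjusted p = 7.22e-04, 0.00164 and 6.82e-05). Prdx5 and Prdx1 were highest in ox-LDL replicate 2, at 5592 and 36922 CPM, and without it edgeR gave 2.46 and 1.88 for them and 3.77 for Sod2, all still called. Txnrd1, thioredoxin reductase, also rose (1.53 ± 0.34, edgeR adjusted p = 0.00633), with replicate 2 inside the control range at 90.8 CPM. Its call was lost when any single control library, or ox-LDL replicate 3, 4 or 5, was left out (edgeR adjusted p of at most 0.0201). Nos2 encodes the inducible nitric oxide synthase, whose product reacts with superoxide to peroxynitrite. It was at most 0.0856 CPM in control replicates 1 to 4 and 6.26 CPM in control replicate 5, and it lay between 44.6 and 1176 CPM in the ox-LDL libraries (log2 fold change 8.13 ± 1.69, edgeR adjusted p = 0.00408). Without ox-LDL replicate 5 the Nos2 value was 6.94, and without control replicate 5 it was 13.09, a fitted value against controls near 0 that gives no bound. The Nos2 call was lost when control replicate 1, 2, 3 or 4 was left out (edgeR adjusted p 0.0101 to 0.0124). Gpx1, the cytosolic glutathione peroxidase, averaged 1348 ± 627 CPM without and 353 CPM with treatment, with overlap (log2 fold change -1.94 ± 0.60, edgeR adjusted p = 0.0335).

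**Figure D5:**
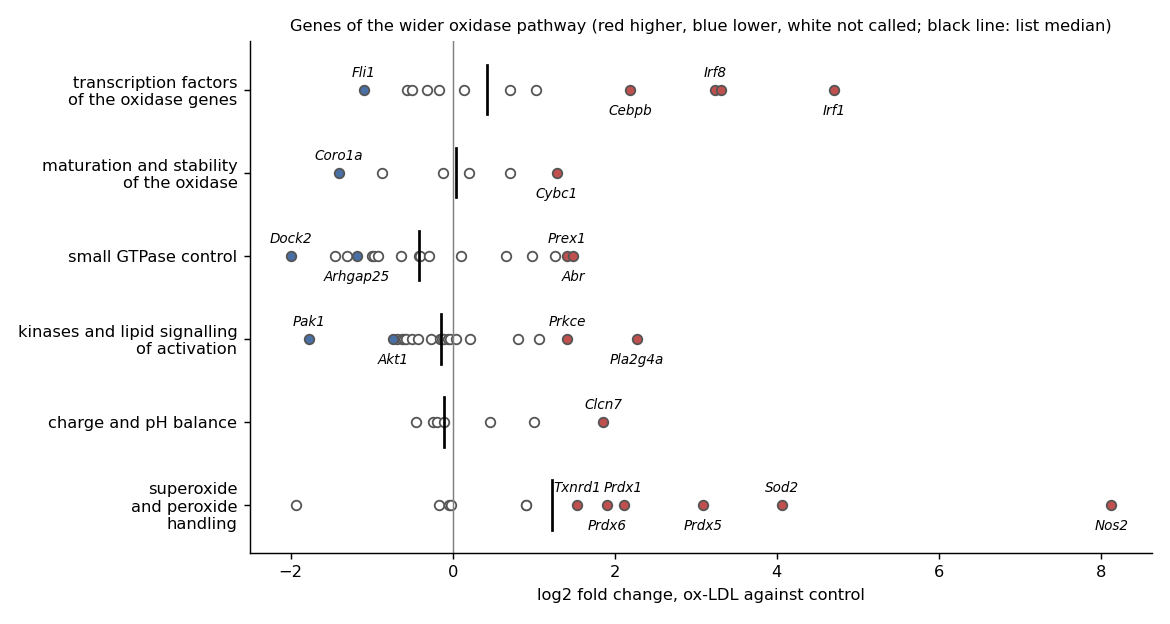
Log2 fold change of each tested gene of 6 lists around the oxidase, ox-LDL against control, red where called higher, blue where called lower and white where not called, with the list median as a black line. The median was highest for superoxide and peroxide handling, at 1.22, and lowest for small GTPase control, at -0.41.

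Markers of other cell types were read because oxidase genes are also expressed in neutrophils, B cells and monocytes. The 7 macrophage markers summed to 23065 to 42749 CPM (scaled by library size alone, as for all marker sums) in the control and 12988 to 28177 CPM in the ox-LDL libraries. All 7 were detected in every library, and Adgre1, which encodes F4/80, rose by 2.07 on the log2 scale (edgeR adjusted p = 2.87e-04). The other 6 were not called, among them Itgam (-0.78) and Lyz2 (-0.67). Of 11 neutrophil markers 10 had an entry, and their sum was 61.2 to 137 CPM in the control and 79.1 to 201 CPM in the ox-LDL libraries. Of these, 3 were tested and S100a8 rose, from 6.35 to 12.98 CPM in the control to 12.9 to 90.2 CPM in the ox-LDL libraries. Mmp8 (log2 fold change -1.25) and Csf3r (0.27) were not called. Among those too low to be tested, Ltf was at 0.394 to 1.57 CPM in the control and at most 0.106 CPM in the ox-LDL libraries, and Cxcr2 at 0.303 to 0.660 and at most 0.104 CPM. Camp went the other way, from at most 0.0506 CPM in the control to 0.159 to 0.799 CPM in the ox-LDL libraries, and Retnlg and Ngp overlapped between the groups. S100a9, the partner of S100a8 in neutrophils, was at most 0.400 CPM and Elane at most 0.0518 CPM in any library. B cell markers summed to at most 4.04 CPM and T cell markers to at most 2.25 CPM in any library. Eosinophil and mast cell markers summed to 3.30 to 12.01 CPM in the control and 0.522 to 3.55 CPM in the ox-LDL libraries, and those of dendritic cells to 1.37 to 2.73 and 2.27 to 4.00 CPM. In the former list Siglecf was called lower (log2 fold change -3.32, edgeR adjusted p = 3.17e-04), and Cpa3 (-1.52) and Cma1 (-1.39) were not called. In the latter Clec9a was called higher (2.33, edgeR adjusted p = 0.00283), and Zbtb46 (1.24) was not called. Cd209a, too low to be tested, was at 0.150 to 1.93 CPM in the control and at most 0.0507 CPM in the ox-LDL libraries. Mesothelial and stromal markers summed to 14.6 to 47.9 CPM in the control and 64.3 to 160 CPM in the ox-LDL libraries, with 3 of 3 tested genes called higher (Col1a1, Col1a2 and Dcn). Among those too low to be tested, Upk3b was at 0.296 to 0.860 CPM in the control and at most 0.266 CPM in the ox-LDL libraries. Lum was at 0.0493 to 0.252 and at most 0.0522 CPM, and Msln and Krt19 overlapped between the groups. The part of other cell types in the rise of Cybb was not tested.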

How the data were processed

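Mouse peritoneal macrophages were sequenced on the BGISEQ-500 platform in 10 libraries, whose conditions and numbers were read from the labels. Per the submitters' processing notes, HISAT2 (2.0.5), SAMtools (1.4), StringTie (1.3.3.13), FastQC and build mm9 were used. The authors deposited an estimated count per gene and library, of which 13.6% were not whole. The counting step is not given in the sources used here. A second deposited value of unnamed unit was treated as FPKM, because it gave 1 length per gene (median deviation 0.651%).

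Estimated counts were rounded. Entries of 9788 circular RNAs were left out and 6318 identifiers that start with BGIG were kept. Symbols came from a RefSeq table of GRCm38.p6, positions from the GENCODE annotation of mm9. After filterByExpr, 12654 genes were tested with edgeR (4.0.16, R 4.3.3; TMM, robust quasi-likelihood test, Benjamini-Hochberg adjustment over all genes, biological coefficient of variation 37.3%). Ratios were tested by exact permutation over 252 arrangements, unadjusted and adjusted over 4 ratios. No pair of libraries in a group agreed within sampling noise. Data were also simulated with a single dispersion for all genes, set below the common dispersion of the real libraries, no length trend and no changed genes at low counts. There edgeR recovered 24 of 100 genes changed by 1 on the log2 scale and 99 of 100 changed by 2. It made 0 false calls, with 12543 genes tested, the changed ones included. DESeq2 recovered 36 of 100 and 97 of 100 and made 8 false calls. Smaller changes were thus often missed even in this simpler setting. The rates in the real libraries, which carry a length trend, are not given by it. Alternatives were DESeq2 (1.42.0), limma (3.58.1), other scalings, filters and thresholds, the replicate block, removal of each library's length trend and each library left out. The genes, lists, tests and windows were chosen with earlier results of these data known. Named genes were the 7 members, up to 3 called genes with the highest and 3 with the lowest fold change of each list, the 3 genes most like each member and marker genes beside a result. Spi1, Rac3, Sod1 and Gpx1 were named after their values were seen. Values of some genes that the rule gives are not reported here.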

Additional observations from a re-analysis of the deposited data

Results flagged for a closer look

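Of 64 groups of 5 libraries examined, over the 7 genes, the reported genes called around them and the 4 ratios, 7 had 1 library so far from the rest that its gap to the nearest exceeded 0.71 of the whole range of the group. For independent groups of normally distributed values, chance would give about 1 in 20 groups, or 3.2 here. These groups share libraries and some genes, so that 3.2 is not a strict expectation for them. Ox-LDL replicate 2 stood apart in Cyba (3231 CPM, nearest 1563, gap 0.712 of the range) and in the ratio of Cybb to Cyba (0.0973, nearest 0.457, gap 0.840). For ratios the gap and range were taken on the log2 scale, for genes on the CPM scale. Ox-LDL replicate 5 stood apart in Ncf4 (194 CPM, nearest 145, gap 0.778) and Pla2g4a (156 CPM, nearest 79.7, gap 0.746). Control replicate 5 stood apart in Irf8 (141 CPM, nearest 96.2, gap 0.912) and Nos2 (6.26 CPM, nearest 0.0856, gap 0.986). Ox-LDL replicate 1 stood apart in Pak1 (23.0 CPM, nearest 13.9, gap 0.759).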

How the results depend on the processing

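Cybb kept its direction and its call in all 24 alternatives, with log2 fold changes of 2.06 to 2.46 and adjusted p of at most 0.00646. Cyba, Ncf1 and Rac1 kept their sign and were called in none of 24 (0.04 to 0.66, 0.14 to 0.43 and -0.51 to -0.23). Rac2 (0.51 to 0.83, adjusted p 0.00253 to 0.425) and Hvcn1 (0.67 to 1.09, adjusted p 0.00275 to 0.354) stayed positive and were called in 4 of 24. These were DESeq2 (0.71 and 0.95), the length trend removed (0.70 and 0.95), ox-LDL replicate 2 left out (0.81 and 1.07) and control replicate 5 and ox-LDL replicate 2 left out together (0.83 and 1.05). In these 4, and at an adjusted p below 0.05, 3 of the 7 genes were called higher, while the genes called higher over all rose from 1189 to 1765 (DESeq2), 1649 (length trend), 1755 (ox-LDL replicate 2 left out), 1843 (both left out) and 2045 (adjusted p below 0.05). Ncf4 turned positive with the length trend removed (0.14) and without control replicate 1 (0.051), control replicate 4 (0.036), ox-LDL replicate 1 (0.028) or ox-LDL replicate 3 (0.015), far from the threshold each time, and the cause was not tested.

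Leaving out each library in turn gave 2.09 to 2.46 for Cybb, 0.04 to 0.66 for Cyba, 0.28 to 0.43 for Ncf1, -0.13 to 0.051 for Ncf4, -0.42 to -0.23 for Rac1, 0.61 to 0.81 for Rac2 and 0.81 to 1.09 for Hvcn1, with 1 to 3 of the 7 called higher and 0 lower. It gave 826 to 1755 genes higher and 436 to 1502 lower over all genes, and 12 to 22 higher and 5 to 10 lower around the oxidase. The 1502 lower, and 10 lower around the oxidase, came without ox-LDL replicate 2, the 436 without control replicate 4, and 437 without ox-LDL replicate 3. The log2 ratios lay between 1.72 and 2.39 for Cybb over Cyba (adjusted p 0.0212 to 0.0635), -1.46 and -1.32 for Hvcn1 over Cybb, -0.46 and -0.23 for Ncf4 over Ncf1, and 0.86 and 1.18 for Rac2 over Rac1. With the length trend removed, chosen for ratios after seeing the data, Cybb over Cyba differed by 1.62 (exact permutation test, adjusted p = 0.0106).

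Over all genes, against 1189 higher and 677 lower, DESeq2 gave 1244 lower, library size alone 704 higher, and limma on log2(FPKM + 1) 555 higher (543 with a pseudocount of 0.1, 472 with no filter). Removing the length trend gave 1226 lower, leaving out control replicate 5 and ox-LDL replicate 2 gave 1843 higher and 1483 lower, an adjusted p below 0.05 gave 2045 and 1320, and an absolute log2 fold change above 2 gave 605 and 244. Around the oxidase, against 16 higher and 6 lower, these gave 13 lower (DESeq2), 10 higher (limma with no filter), 17 lower (length trend), 25 and 10 (both libraries left out), 14 lower (adjusted p below 0.05), and 9 and 0 (fold change above 2). Upper-quartile normalization, library size alone and limma on FPKM shifted the median of all genes by -0.14, -0.16 and -0.22 to -0.23.

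Same-numbered libraries deviated from their groups together with r of 0.02, -0.27, 0.44, -0.28 and 0.41, and only control replicate 5 correlated best with its own number. These deviations include the length trend of each library, so that they cannot decide whether replicate numbers pair the samples. With the replicate block, the 7 genes kept their calls, over all genes 885 were higher and 549 lower, and around the oxidase 14 were higher and 5 lower, with Akt1, Txnrd1 and Prex1 no longer called. The ratios Cybb over Cyba (1.89, adjusted p 0.167), Rac2 over Rac1 (1.02, 0.125) and Hvcn1 over Cybb (-1.39, 0.125) were above the threshold in a paired exact permutation test whose smallest p is 0.0625.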
